A study of Rattus norvegicus with 16 samples.

Results

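The outer annulus fibrosus (OAF) cells at 2 weeks after surgery are the cells with number 3 in the deposited subcluster column of the 8 libraries of that time point. The column holds numbers and no names, and number 3 was read here as OAF in both groups because the 6 OAF marker genes were highest in it. They number 9424 of 93925 cells at 2 weeks and of 149272 cells in the series of 16 libraries, and they are part of the 79682 cells that the deposit classes as intervertebral disc (IVD) cells at 2 weeks. The libraries came from 4 male Sprague-Dawley rats. Each rat gave an LDP library from 2 pooled lumbar discs that had been punctured with a needle in a model of disc injury and low back pain, and a CON library from 2 pooled lumbar discs of the same spine that were left unpunctured. The labels give an age of 8 weeks for the animals, which per the methods is the age at surgery, 2 weeks before these discs were taken. No other allele or agent separates the groups. The punctured discs lay further towards the tail than the CON discs in every rat, so injury and vertebral level cannot be told apart. The CON discs are neighbours of injured discs and not discs of uninjured animals. The 8-week libraries were used only for the count of cells.

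The intervertebral disc joins neighbouring vertebrae. Its gel-like core, the nucleus pulposus (NP), is held by the annulus fibrosus, whose inner part (IAF) resembles cartilage and whose outer part is a stack of collagen I sheets that resembles tendon and ligament. Outer annulus cells make and align this fibrous matrix, and the outer annulus is the layer of the healthy disc in which nerve fibres and small vessels are found. Ngfr encodes p75, a low-affinity receptor for neurotrophins, which sensory neurons and Schwann cells, the glia that ensheath nerve fibres, are known to make.

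OAF cells made up 14.6%, 13.4%, 9.28% and 10.1% of the IVD cells of CON rats 1 to 4, and 6.29%, 16.4%, 9.27% and 14.98% of those of LDP rats 1 to 4. The 2 ranges overlapped, and the mean share was 11.8% ± 2.52 (SD, n = 4) in CON and 11.7% ± 4.76 (SD, n = 4) in LDP. The difference of -0.106 percentage points gave p = 0.971 when the group labels of the libraries were exchanged in all 70 ways (an exact permutation test, two-sided), for which 0.0286 is the smallest possible p. LDP rat 1 was the library with the lowest share, and without rat 1 the difference was 2.62 points. The subcluster numbers came from separate clusterings of the 2 groups, so these shares also depend on the labelling. With the IVD cells of all 8 libraries clustered together the difference was -3.44 points (p = 0.257, exact permutation test).

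Each library held 454 to 1418 OAF cells in CON and 528 to 2335 in LDP. The median OAF cell had 3258 to 7178 UMIs (unique molecular identifiers, the counted RNA molecules) in CON and 3623 to 5394 in LDP, and a library's OAF cells together had 2620735 to 9711615 UMIs. Mitochondrial genes took 3.83% to 4.72% of the OAF UMIs, with overlapping ranges in the 2 groups. No 2 libraries shared more than 2 OAF cell barcodes. The CON and the LDP libraries were clustered apart by the authors, so the subcluster numbers were given separately in the 2 groups. When the IVD cells of all 8 libraries were clustered together, 88.4% to 93.6% of the OAF cells of a CON library fell into the common OAF cluster, against 69.5% to 77.9% of those of an LDP library. The other 2 subclusters, the NP and IAF cells, are called subclusters 1 and 2 below because the LDP numbers do not say which of the 2 is which.

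The levels of the 6 OAF markers chose the subcluster that is called OAF here, so they describe it and do not support its name. All 6 were above both other subclusters in 8 of 8 libraries. Levels below are mean CPM (UMI counts per cell after scaling every cell to the same total) over the cells of a library. Col1a1, the main chain of fibrous collagen, lay at 38467 to 68375 CPM in the OAF cells of CON and at 35356 to 67556 CPM in those of LDP, against 1634 to 8469 CPM in subclusters 1 and 2. Lum, a small proteoglycan that spaces collagen fibrils, lay at 1102 to 2446 CPM in CON and 730 to 1620 CPM in LDP, against 6.23 to 127 CPM. Myoc, which encodes the secreted protein myocilin, lay at 712 to 975 and 408 to 702 CPM, against 0.659 to 61.8 CPM. Igfbp5 and Igfbp6, which bind insulin-like growth factors, were above the higher other subcluster by 4.11 and 4.23 on the scale of log2(CPM + 1), on average over the 8 libraries. Fibin was the marker with the smallest gap, at 623 to 804 CPM in CON and 533 to 877 in LDP against 142 to 292 CPM, a mean log2 difference of 1.72. Since the subclusters were also drawn from these same cells and genes, differences between them are a description and carry no test.

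**Figure D1:**
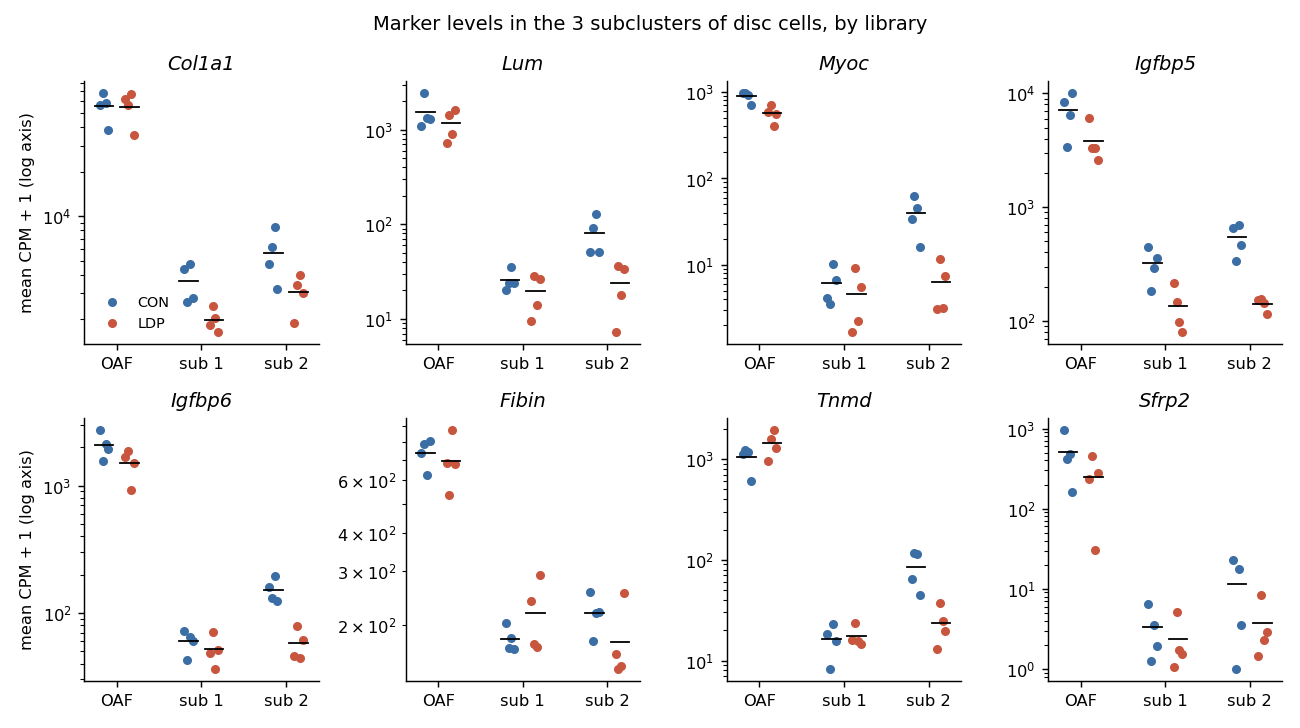
Mean CPM + 1 (log axis) of the 6 OAF markers and of Tnmd and Sfrp2 in the OAF cells and in subclusters 1 and 2 (sub 1, sub 2), with a point for each library (CON blue, LDP red) and a bar at the mean of 4 libraries. Every OAF point lies above every point of the other 2 subclusters, with Col1a1 at 35356 to 68375 CPM in OAF cells against 1634 to 8469 CPM elsewhere.

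The genes above both other subclusters included many of tendon, elastic fibres and loose connective tissue. Of 9130 genes measured, 35.3% lay above both other subclusters and 19.2% lay below both in all 8 libraries. Among genes with a mean of at least 20 CPM in OAF cells, 383 were at least 2-fold above both in all 8 libraries. The gene with the largest gap was Sfrp2, a secreted Wnt modulator of connective tissue fibroblasts, at 158 to 967 CPM in CON and 29.2 to 459 CPM in LDP against at most 22.1 CPM elsewhere, a mean log2 difference of 5.93 over a range of 3.70 to 8.37 by library. Tnmd, tenomodulin, a membrane protein of tendon and ligament cells, lay at 609 to 1244 CPM in CON and 961 to 1960 CPM in LDP against 7.25 to 117 CPM. After Sfrp2 came the OAF marker Myoc (5.67), the growth factor gene Igf1 (5.16), the phospholipase gene Pla2g2a (5.11) and the OAF marker Lum (5.01). The matrix gene Postn (4.96), the peptidase gene Mme (4.80), Tnmd (4.80) and Wfdc1 (4.78) followed, the bracketed value being the mean log2 difference from the higher other subcluster. Egfl6, Lama2, Ltbp2, Kera, Aqp1 and Gsta1 closed the 15 leading genes, at 4.42 to 4.70. Kera encodes keratocan, a relative of Lum, and Ltbp2 a protein of elastic microfibrils.

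By function, 15 of 26 genes for fibrous collagens and their processing lay above both other subclusters in 8 of 8 libraries, and 4 lay below both. Of 17 tendon and ligament genes 10 lay above, among them the transcription factor genes Scx (90.2 to 162 CPM in OAF cells, against 3.17 to 16.2 CPM elsewhere) and Mkx (6.23 to 23.6 CPM, against 0.935 to 6.95 CPM). Thbs4, a thrombospondin of tendon, lay at 698 to 2019 CPM against 66.1 to 193 CPM. In the other direction, Prg4, the lubricant of joint surfaces, was lower in OAF cells by a mean log2 difference of 2.86 from the lower other subcluster, and Cilp, Cilp2 and Thbs2 were also below both. For small leucine-rich proteoglycans the count was 6 of 9 above, for elastic fibre genes 12 of 15, for connective tissue fibroblast genes 10 of 12 and for insulin-like growth factors with their binding proteins 7 of 9. Col1a1 among the collagens, Lum among the proteoglycans and Igfbp5 and Igfbp6 among the growth factor genes are OAF markers, so the reading of the subcluster as OAF placed these 4 above. Fbn1, the main protein of microfibrils, lay at 222 to 558 CPM against 37.0 to 97.8 CPM. Pdgfra, the platelet-derived growth factor receptor of fibroblasts, lay at 59.0 to 149 CPM against 3.98 to 24.3 CPM. All 7 measured Hox genes of the trunk, which encode positional identity along the body axis, were above both other subclusters.

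Below both other subclusters stood the cartilage and low-oxygen genes. Of 15 cartilage genes 13 were below both in 8 of 8 libraries and none was above. Acan, the large proteoglycan of cartilage and disc, lay at 258 to 526 CPM in OAF cells against 2804 to 4567 CPM elsewhere. Col2a1, the main collagen of cartilage, lay at 837 to 4119 CPM against 4857 to 17825 CPM. Of 16 hypoxia and glycolysis genes 15 were below both, and none was above. Ldha, lactate dehydrogenase, lay at 353 to 878 CPM against 1370 to 2153 CPM, and Car9, a carbonic anhydrase induced by low oxygen, at 0.718 to 2.73 CPM against 25.1 to 86.5 CPM. Grem1, an inhibitor of bone morphogenetic proteins, had the largest gap of all genes below both (mean log2 difference -4.93), with 4.51 to 55.9 CPM in OAF cells against 484 to 2105 CPM. Mug1 (-4.59), the angiotensinogen gene Agt (-4.47), Zfp385b (-4.26) and Spock1 (-4.22) came next, followed by F13a1, Tekt1, Krt17, Il23r and Pcsk2 at -4.17 to -4.06.

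The OAF cells were not uniform. Leiden clustering of the 9424 cells gave 11 clusters, numbered by size from 0. Cluster 0 (2237 cells) was led by the cartilage-side genes Col2a1, Clec3a, Prg4 and Chad, with 6906 CPM of Col2a1 against 884 CPM in the rest of the OAF cells. Cluster 1 (2129 cells) was led by Mt3, C1qtnf7 and Meox1 and had 1331 CPM of Fibin. Cluster 2 (1829 cells) was led by the matrix protease gene Mmp3 with Cyp1b1 and Igf2, and had 1739 CPM of Myoc. Cluster 3 (1454 cells) was led by Sfrp2, Pi16 and Clec3b, genes of loose connective tissue fibroblasts, with 1540 CPM of Sfrp2. Cluster 5 (379 cells), led by Chodl and Emb, had 3082 CPM of Tnmd and 763 CPM of Scx. In clusters 0 to 3 Col1a1 lay at 33824 to 79676 CPM.

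Cluster 6 and cluster 4 were led by genes of cell types other than annulus fibroblasts. Cluster 6 (376 cells) had Cryab, Scn7a and Mbp, the last of which encodes a protein of the myelin sheath of nerve fibres, among its leading genes. All 11 of the Schwann markers in the files were higher there than in the other OAF cells, and it is called Schwann-like. Its cells had 2591 CPM of Col1a1 and 24.9 CPM of Lum. Cluster 4 (384 cells) was led by Myh11, Tagln, Rgs5 and Acta2, contractile and pericyte genes of the vessel wall. All 12 pericyte and smooth muscle markers were higher there, and it is called pericyte-like. Its cells had 2447 CPM of Col1a1, 4.75 CPM of Myoc and 29.4 CPM of Fibin. The other OAF markers were not low there, with 708 CPM of Lum, 3520 CPM of Igfbp5 and 926 CPM of Igfbp6. In subclusters 1 and 2 these lay at no more than 127, 700 and 194 CPM. LDP libraries gave 374 of the 376 Schwann-like cells and 375 of the 384 pericyte-like cells. The Schwann-like cluster made up 9.47%, 8.52%, 5.54% and 5.20% of the OAF cells of LDP rats 1 to 4 and at most 0.220% of those of a CON library. The pericyte-like cluster made up 7.77%, 6.12%, 6.55% and 9.35% in LDP and at most 0.353% in CON.

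**Figure D2:**
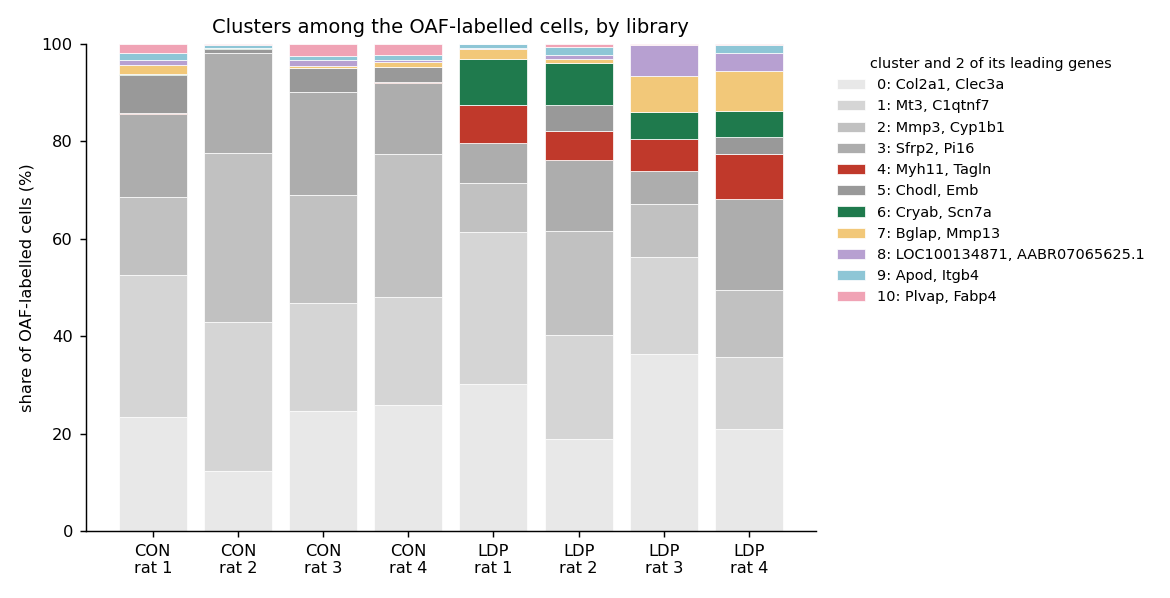
Share of the OAF-labelled cells of each library (percent) in each of 11 clusters, each named by its number and 2 of its leading genes. The pericyte-like cluster 4 (red) and the Schwann-like cluster 6 (green) fill 6.12% to 9.35% and 5.20% to 9.47% of the bars of the LDP libraries and at most 0.353% and 0.220% of the CON bars.

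The 4 smallest clusters held other material. Cluster 10 (105 cells, 83 of them from CON) was led by Plvap, Fabp4, Flt1 and Cdh5, had all 10 endothelial markers higher than the other OAF cells, and is called endothelial-like. Cluster 7 (253 cells) was led by the bone protein gene Bglap with Mmp13 and Dmp1 but also had Col9a1 and Col9a3 of cartilage among its leading genes, and cluster 8 (172 cells) mixed globin genes with the cell division gene Top2a, so both stay unnamed. Cluster 9 (106 cells) was led by Apod and Itgb4, and all 3 perineurial (nerve sheath) markers in the files were higher there. Its cells had 4013 CPM of Col1a1 but 1616 CPM of Lum and 2279 CPM of Myoc, and it also stays unnamed. LDP rats 3 and 4 stood apart in clusters 7 and 8, with 7.26% and 8.17% of their OAF cells in cluster 7 and 6.35% and 3.71% in cluster 8, against at most 2.08% and 1.32% in the other 6 libraries. Summed erythroid marker levels in the OAF cells were 2049 CPM in LDP rat 4 and 2.51 to 417 CPM in the other 7 libraries.

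The marked cells were also counted at equal depth. Each cell was thinned to 1000 UMIs, which left out 0 to 3 shallower OAF cells per CON library and 3 to 28 per LDP library. An OAF cell then counted as Schwann-marked or pericyte-marked when it had a UMI of at least 2 of the 11 Schwann or of the 12 pericyte and smooth muscle markers. In CON, 0 of 1415, 0 of 454, 0 of 1140 and 0 of 1210 OAF cells of rats 1 to 4 were Schwann-marked, which allows shares of up to 0.212%, 0.661%, 0.263% and 0.248%. In LDP the shares were 8.21%, 6.11%, 3.95% and 3.20%. The difference of 5.37 percentage points had an adjusted p of 0.0286 over the 2 lists in the exact permutation test, the smallest it can give, and LDP was higher in 4 of 4 rats. That test exchanges libraries freely, although each rat gave 1 of each group. In the exact sign-flip test that keeps the rats paired, neither this difference nor the next passed, since the smallest p that 4 rats allow, which both reached, is above 0.05. Pericyte-marked cells were 0.495%, 0%, 0.702% and 0.661% of the OAF cells of CON rats 1 to 4 and 7.44%, 5.94%, 5.36% and 7.07% of those of LDP rats 1 to 4. The groups did not overlap, and the difference of 5.99 points had an adjusted p of 0.0286 in the same exact test. The subcluster numbers were given in separate clusterings of the CON and the LDP libraries. The p-values for shares of OAF-labelled cells therefore cannot tell a difference between discs from a difference in labelling. In subclusters 1 and 2 of the same libraries, at most 0.0987% of cells were Schwann-marked and at most 2.97% pericyte-marked. The intervals and limits of these shares cover counting error only.

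Summed over the 11 Schwann markers, the mean level in OAF cells was 13.0 to 15.8 CPM in CON and 216 to 874 CPM in LDP. Sox10, the transcription factor that defines Schwann cells, was at 0 in 3 of 4 CON libraries and at 0.119 CPM in the other, and lay at 10.2, 13.6, 2.89 and 4.04 CPM in LDP. The 12 pericyte and smooth muscle markers summed to 36.8 to 81.9 CPM in CON and 606 to 918 CPM in LDP.

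The marked cells were found in both groups but under different deposited labels. Over all cells of a library and all UMIs, cells with at least 3 Schwann markers numbered 93, 27, 81 and 74 in CON rats 1 to 4 and 51, 192, 46 and 55 in LDP rats 1 to 4. As a share of all cells they made up 0.659% ± 0.105 in CON and 0.641% ± 0.393 in LDP (SD, n = 4 each), a difference of -0.0181 points (p = 0.971, exact permutation test). In CON 0% to 1.08% of them carried subcluster number 3 (OAF) and 87.7% to 98.6% carried no class name in the deposit. In LDP 83.3% to 94.5% carried number 3 and 0% to 13.0% carried no class name. Cells with at least 3 pericyte or smooth muscle markers made up 2.91% ± 1.11 of all cells in CON and 1.27% ± 0.536 in LDP (SD, n = 4 each), a difference of -1.64 points with an adjusted p of 0.0571 in the exact permutation test. Every LDP library (0.758% to 1.86%) lay below every CON library (2.03% to 4.47%), LDP was higher in 0 of 4 rats, and the unadjusted p of 0.0286 in that exact test was the smallest it can give. Of these, 0.997% to 3.73% had number 3 in CON and 47.3% to 64.6% in LDP, while 48.3% to 88.4% had no class name in CON and 3.17% to 13.5% in LDP.

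**Figure D3:**
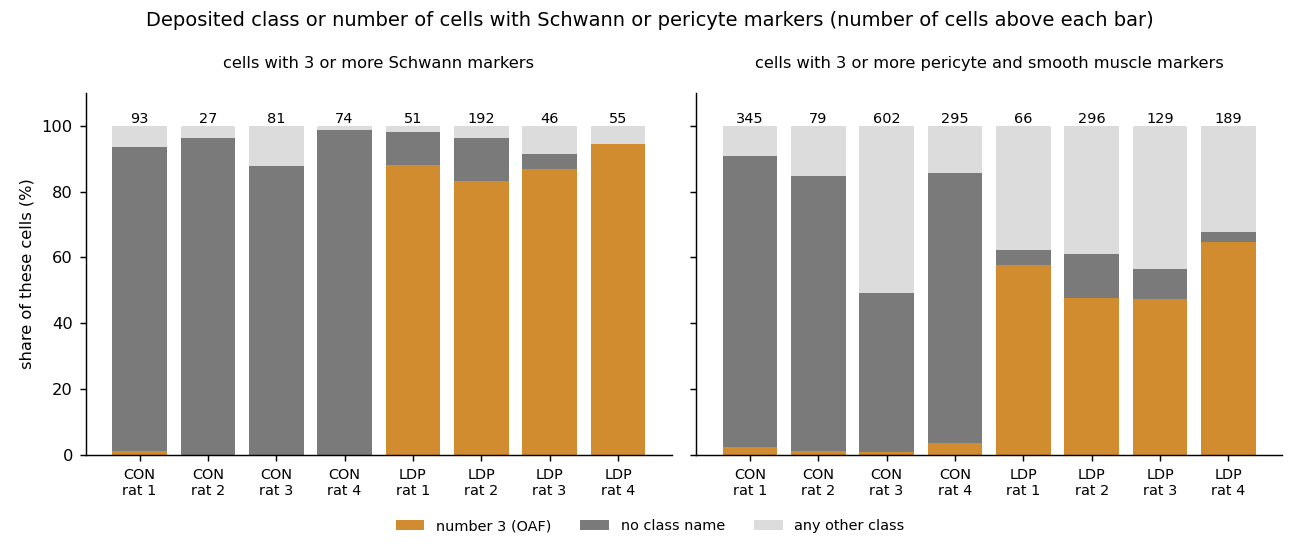
Share (percent) of the cells with at least 3 Schwann markers (left) or at least 3 pericyte and smooth muscle markers (right) that carry subcluster number 3 (read as OAF), no class name or any other class or number in the deposit, by library, with the number of such cells above each bar. The OAF part is at most 3.73% in the CON libraries and 47.3% to 94.5% in the LDP libraries.

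The comparison of LDP with CON asks which genes differed between the OAF-labelled cells of the 2 groups. Those labels came from separate clusterings, so its p-values cannot tell a difference between discs from a difference in labelling. The comparison was made for all OAF-labelled cells and again without the marker-bearing cells. These are the cells that had at least 2 Schwann or at least 2 pericyte and smooth muscle markers over all UMIs. Their removal left 1385, 442, 1108 and 1177 OAF cells in CON rats 1 to 4 and 431, 1976, 862 and 1142 in LDP rats 1 to 4. Since it selects on the marker genes, their own levels fall by construction.

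With all OAF-labelled cells, 110 of 8802 genes tested were higher in LDP and 15 were lower, at an adjusted p under 0.05 in limma's moderated test with the rat as a block. These are 1.25% and 0.17% of the genes tested. Of the 110 higher genes 44 lay under the filter of 5 CPM in all 4 CON libraries. In 3.35% of genes all 4 LDP libraries lay above all 4 CON libraries and in 4.49% all lay below. The counts of higher and lower genes were 44 and 4 without rat 1, 28 and 9 without rat 2, 33 and 0 without rat 3, and 122 and 50 without rat 4.

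Without the marker-bearing cells, 1 of 8700 genes was higher (0.0115%) and 0 were lower (0%) at the same threshold, by limma, against 64 higher and 491 lower at an unadjusted p under 0.05. The excess of lower genes depended on the scaling, with 192 higher and 250 lower after rescaling by TMM and 111 higher and 144 lower by DESeq2 at that threshold. edgeR called 1 higher and 0 lower and DESeq2 called 7 higher and 10 lower on the summed recovered counts of these cells. The gene called by limma was Hoxd10. Of the 110 higher genes 61 no longer passed the filter on low values, 34 of the other 49 were still above 0 on the log2 scale and 15 were below 0. The 15 lower genes were all tested again and all stayed below 0, at -1.91 to -0.60. In this comparison 32 genes (0.368%) had all 4 LDP libraries above all 4 CON libraries and 324 (3.72%) had them all below.

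**Figure D4:**
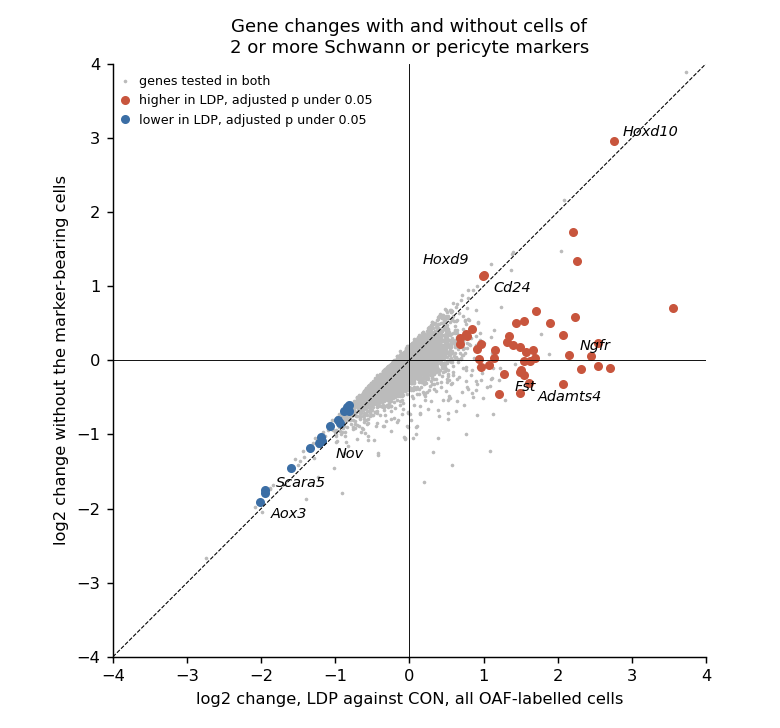
Log2 change in LDP against CON of each gene in all OAF-labelled cells (horizontal axis) and without the marker-bearing cells (vertical axis), for genes tested in both, with genes higher (red) or lower (blue) at an adjusted p under 0.05 in all OAF-labelled cells. The dashed line marks equal change. Of 49 red points 15 lie below 0 on the vertical axis, Hoxd10 stays at 2.95, and the 15 blue points stay between -1.91 and -0.60.

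The 10 genes with the largest rise were mostly leading genes of the Schwann-like and pericyte-like clusters, and none of them passed the filter without the marker-bearing cells. Scn7a, a sodium channel gene, lay at 0.566, 2.63, 1.15 and 0 CPM in the OAF cells of CON rats 1 to 4 and at 133, 86.5, 73.8 and 36.4 CPM in those of LDP rats 1 to 4. All LDP libraries were above all CON libraries, with a log2 change of 5.34 (SE 0.29, limma adjusted p = 5.18e-05). Scn7a, Col28a1, Prrg4, Sox2, Sostdc1, Cxcl2 and Acta2 lay under 5 CPM in all 4 CON libraries and passed the filter through the LDP libraries alone, so they had to differ and their tests add nothing to their levels. Scn7a, the collagen gene Col28a1 (4.75), Prrg4 (4.75) and the transcription factor gene Sox2 (4.73) stood among the 10 leading genes of the Schwann-like cluster. Myh11, smooth muscle myosin, lay at 3.95 to 7.82 CPM in CON and 70.6 to 264 CPM in LDP (log2 change 4.51, SE 0.21, limma adjusted p = 4.4e-05), and Acta2, smooth muscle actin, changed by 4.49. Sostdc1 lay at 0 in CON rats 2 to 4, at 0.746 CPM in CON rat 1 and at 18.4 to 30.6 CPM in LDP. The chemokine gene Cxcl2 ranged from 0 to 2.08 CPM in CON and from 8.31 to 110 CPM in LDP (log2 change 4.50, SE 0.62).

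Of the 11 Schwann markers in the files 7 were tested, 6 rose and none fell, and of the 12 pericyte and smooth muscle markers 10 were tested, 8 rose and none fell, against 1.25% of all genes. Of the 7 Schwann markers 6 passed the filter through the LDP libraries alone, so they had to differ, as did 3 of the 10 pericyte and smooth muscle markers. These counts are therefore a description of the 2 lists. Of the 110 higher genes 14 were in these 2 lists and 96 in neither. Beyond the lists, Adamts4, an aggrecan-cutting protease, lay at 70.2 to 96.2 CPM in CON and 232 to 281 CPM in LDP with a log2 change of 1.61 (SE 0.15, limma adjusted p = 0.000754), and changed by -0.31 without the marker-bearing cells (limma adjusted p = 0.759). Fst, the activin inhibitor follistatin, changed by 1.51 (limma adjusted p = 0.00187) and by -0.13 without them (limma adjusted p = 0.886). Itgb4, an integrin of nerve sheath and epithelium, changed by 1.62 and by -0.01. The glycolysis gene Ldha rose by 0.76 (limma adjusted p = 0.0419) and the early response gene Ier3 by 0.85 (limma adjusted p = 0.0288), with 0.36 and 0.42 without the marker-bearing cells.

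Ngfr lay at 10.4, 9.85, 3.94 and 6.15 CPM in the OAF cells of CON rats 1 to 4 and at 41.5, 62.4, 26.1 and 22.7 CPM in those of LDP rats 1 to 4. All LDP libraries were above all CON libraries, with a log2 change of 2.16 (SE 0.20, limma adjusted p = 0.000754). The share of cells with an Ngfr UMI at equal depth was 0.741% ± 0.275 in CON and 2.93% ± 1.33 in LDP (SD, n = 4 each), a difference of 2.19 points (adjusted p = 0.0286, exact permutation test). It did not pass the exact sign-flip test over rats, where it reached the smallest p possible. As for the marked cells, these p-values cannot tell a difference between discs from one in labelling. The share was 0.279% to 0.345% of CON and 0% to 0.833% of LDP endothelial cells, taken as a cell type that should lack the gene. In subclusters 1 and 2 together it was 1.15%, 2.17%, 1.39% and 1.23% in CON rats 1 to 4, above the 1.06%, 0.881%, 0.526% and 0.496% of their OAF cells. In LDP rats 1 and 2 it was 1.64% and 2.33% there, and the shares of LDP rats 3 and 4 are not given here. Over all 4 rats the mean log2 change of the Ngfr level in subclusters 1 and 2 was -0.11. The median endothelial cell had 1685 to 3511 UMIs in CON and 2015 to 2705 in LDP before thinning. The endothelial class was not free of other cells. At least 2 pericyte and smooth muscle markers over all UMIs were found in 14 of 968, 9 of 336, 17 of 671 and 31 of 1128 of its cells in CON rats 1 to 4. In LDP rats 1 to 4 they were found in 13 of 257, 108 of 1281, 45 of 612 and 65 of 1142. Of the Ngfr UMIs of LDP OAF cells 72.0% were in the Schwann-like cluster, where 226 of 374 cells (60.4%) had one. In CON the largest part, 34.6%, was in the 43 cells of cluster 9, of which 22 (51.2%) had an Ngfr UMI. Without the OAF cells that had at least 2 Schwann markers over all UMIs the difference in share was 0.187 points at equal depth (adjusted p = 0.514, exact permutation test). Without thinning, the shares in these remaining cells were 1.90% to 2.88% in CON and 2.94% to 4.43% in LDP, so the groups did not overlap, while with all OAF-labelled cells they were 1.90% to 3.08% and 4.94% to 9.51%. In endothelial cells the unthinned shares were 0.298% to 0.596% in CON and 1.14% to 2.50% in LDP. Without all marker-bearing cells Ngfr lay at 4.06 to 10.3 CPM in CON and 4.98 to 12.7 CPM in LDP, with a log2 change of 0.06 (limma adjusted p = 0.957). Ngfr was not among the Schwann markers used to pick the cells, and perineurial markers were not used to pick them.

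**Figure D5:**
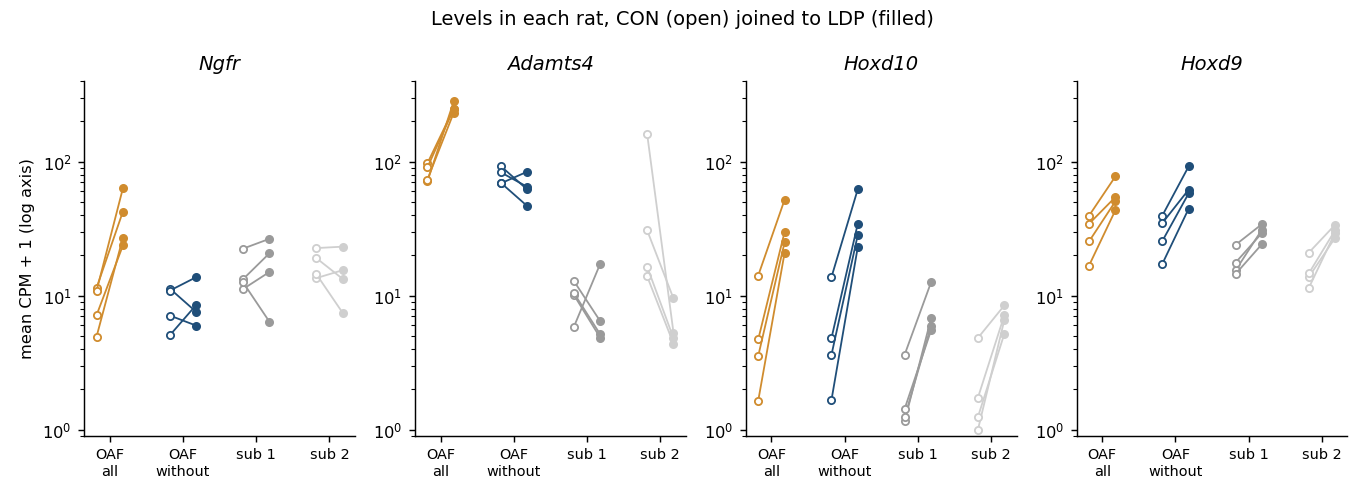
Mean CPM + 1 (log axis) of Ngfr, Adamts4, Hoxd10 and Hoxd9 in all OAF-labelled cells, in OAF cells without the marker-bearing cells and in subclusters 1 and 2, with a line from the CON library (open) to the LDP library (filled) of each of the 4 rats. Ngfr and Adamts4 rise in all OAF-labelled cells (log2 changes 2.16 and 1.61) and overlap between the groups without the marker-bearing cells. Hoxd10 is higher in LDP in every rat in the OAF cells with and without the marker-bearing cells. Subclusters 1 and 2 are joined by number, and a number need not stand for the same cell type in CON and LDP.

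Hoxd10 was higher in LDP with and without the marker-bearing cells. It lay at 13.1, 3.71, 0.642 and 2.54 CPM in the OAF cells of CON rats 1 to 4 and at 51.0, 28.9, 19.8 and 24.0 CPM in those of LDP rats 1 to 4. All LDP libraries were above all CON libraries, with CON rat 1 the highest of its group. The log2 change was 2.76 (SE 0.28, limma adjusted p = 0.00104) and without the marker-bearing cells 2.95 (SE 0.26, limma adjusted p = 0.0103). Hoxd10 was lower in subclusters 1 and 2 than in OAF cells but moved the same way there, with a mean log2 change of 2.02, and the change in OAF cells exceeded that one by 0.74 (limma adjusted p = 0.11). Its neighbour Hoxd9 lay at 38.5, 33.4, 15.8 and 24.4 CPM in CON and at 76.6, 53.4, 42.5 and 49.6 CPM in LDP (log2 change 1.00, SE 0.17, limma adjusted p = 0.0208). It changed by 1.15 without the marker-bearing cells (limma adjusted p = 0.166). The unadjusted limma p of Hoxd9 was 0.000213 with all OAF-labelled cells and 4.54e-05 without the marker-bearing cells. The other 5 of the 7 Hox genes tested did not pass, among them Hoxc8 with -0.63 (limma adjusted p = 0.183) and Hoxc9 with -0.22 (limma adjusted p = 0.651). Hox genes follow the position along the spine, and the LDP discs were the more caudal ones in every rat, so puncture and level cannot be told apart for these 2 calls.

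For the 15 genes that were lower in LDP, a level of 5 CPM or more in at least 1 CON library follows from the filter and the fall. Aox3, with the largest fall, lay at 5.26 to 17.2 CPM in CON and at 0.367 to 4.40 CPM in LDP, so it passed the filter through the CON libraries alone and had to differ. Scara5, a scavenger receptor of fibroblasts, lay at 40.2, 46.4, 42.5 and 47.4 CPM in CON rats 1 to 4 and at 6.44, 26.5, 4.67 and 14.95 CPM in LDP rats 1 to 4. The groups did not overlap, and the log2 change was -1.95 (SE 0.32, limma adjusted p = 0.0181). Nov, a matrix signalling protein of the CCN family, lay at 1094 to 1498 CPM in CON and at 499, 805, 289 and 830 CPM in LDP (-1.18, SE 0.21, limma adjusted p = 0.0243). Ntn1, the axon guidance molecule netrin-1, lay at 47.5 to 85.1 CPM in CON and at 9.66 to 44.2 CPM in LDP (-1.34, SE 0.23, limma adjusted p = 0.022). Aox3 (-2.01), Zic1 (-1.95), the angiotensin receptor gene Agtr2 (-1.59), Clec3b (-1.23), Tmem100 (-1.19), RGD1561849 (-1.07) and Cdon (-0.97) complete the 10 with the largest fall, the bracketed value being the log2 change. Without the marker-bearing cells these 10 changed by -1.91 to -0.81, and their limma adjusted p-values were 0.431 to 0.612. Their unadjusted limma p-values were 0.000347 (Scara5) to 0.00228 (RGD1561849) there, against 0.00017 (Scara5) to 0.000615 (Agtr2) with all OAF-labelled cells. An adjusted p depends on the p-values of all genes tested.

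By list, connective tissue fibroblast genes had 2 of 12 members lower (Clec3b and Pdgfra) and none higher, where 0.17% of all genes tested were called lower and 1.25% higher, with a median log2 change of -1.02, against a median of -0.09 over all genes tested. With the marker-bearing cells left out limma called none, 8 were lower at an unadjusted p under 0.05 (5.64% of all genes), the list's median was -0.84 against -0.12, and 12 of 12 members were below 0, as were 6240 of 8651 genes tested in both forms. Pi16, a marker of adventitial fibroblasts in this list, lay at 53.9, 23.4, 35.7 and 63.5 CPM in CON and at 2.14, 18.7, 0.695 and 14.3 CPM in LDP, with a log2 change of -2.74 that did not pass (limma adjusted p = 0.0704). Scara5, Clec3b and Pi16 are among the leading genes of cluster 3, which made up 17.0%, 20.7%, 21.1% and 14.6% of the OAF cells of CON rats 1 to 4 and 8.33%, 14.5%, 6.85% and 18.6% of those of LDP rats 1 to 4. LDP rats 1 and 3, with the lowest shares, also had the lowest Scara5 and Pi16 levels, and the part of the cluster shares in these falls was not tested. Elastic fibre genes had 1 of 15 lower (Fbln1, -0.89) and none higher. Wound and myofibroblast genes had Acta2 higher and Cdh11 lower (-0.85) of 15. None of 26 fibrous collagen genes, 17 tendon and ligament genes, 9 small proteoglycan genes, 9 insulin-like growth factor genes, 15 cartilage genes and 5 cell cycle genes passed the test by limma, with medians of -0.23, -0.29, -0.32, -0.49, 0.17 and -0.01. At an unadjusted p under 0.05, 10 of the collagen genes, 2 of the tendon genes, 3 of the small proteoglycan genes and 4 of the growth factor genes were lower, and 1 of the tendon genes, 4 of the cartilage genes and 1 of the cell cycle genes were higher. Over all genes tested, 6.79% were lower and 4.59% higher at this threshold. That balance turned with the scaling, from 404 higher and 598 lower genes to 573 higher and 441 lower with CPM rescaled by TMM (a scaling that centres most genes), so list counts at this threshold are a description on the CPM scale. Igf1 changed by -1.14 (limma adjusted p = 0.0732). Of the 6 OAF markers none was called by limma and 3 were lower at an unadjusted p under 0.05, with log2 changes from -0.85 for Igfbp5 (limma adjusted p = 0.269) to -0.02 for Col1a1. Matrix proteases had Adamts4 as the only call of 16, inflammation genes Cxcl2 of 12, genes of bone morphogenetic proteins and their antagonists Fst of 10, early response genes Ier3 of 17, hypoxia and glycolysis genes Ldha of 15, and neurotrophin and guidance genes Ngfr among the higher and Ntn1 as the only lower of 8. Among the nucleus pulposus markers Cd24 was higher (0.99, limma adjusted p = 0.0211) of 2 tested. Without the marker-bearing cells Cd24 changed by 1.14 (limma adjusted p = 0.205). In the common OAF cluster of the joint clustering Cd24 fell in rat 1, from 43.9 CPM in CON to 39.8 CPM in LDP, and rose in the other rats. The endothelial list had Esam higher (1.79, limma adjusted p = 0.00564) of 4 tested. Esam (0.822 to 3.34 CPM in CON and 6.29 to 15.5 CPM in LDP), Cxcl2 and Acta2 passed the filter through the LDP libraries alone, so these 3 had to differ. Without the marker-bearing cells none of the 3 passed it.

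Whether a change was larger in OAF cells than in the other 2 subclusters was tested as an interaction. With all OAF-labelled cells 295 of 9130 genes (3.23%) changed more upward in OAF cells and 130 (1.42%) more downward, by limma at an adjusted p under 0.05. Ngfr rose more in the OAF-labelled cells by 2.27 on the log2 scale (limma adjusted p = 0.000946). The OAF numbers came from separate clusterings of the 2 groups, so these p-values cannot tell a difference between discs from one in labelling. The counts were 68 to 140 upward and 5 to 37 downward when each rat was left out in turn. Without the marker-bearing cells 0 of 9049 genes (0%) passed in either direction by limma, against 554 upward and 871 downward at an unadjusted p under 0.05. The loss of calls did not go with a loss of size for every gene, since the difference for Scara5 was -1.85 with all OAF-labelled cells and -1.65 without the marker-bearing cells, and that for Tmem100 was -1.58 and -1.43, while that for Ngfr was 2.27 and 0.18.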

How the data were processed

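Disc tissue of 4 rats at 2 weeks (8 libraries, CON and LDP) was digested and profiled by droplet single-cell RNA sequencing with 3′ tags. The deposited values are log2(CPM + 1) per cell and gene, made by the authors in Partek against the rat build rn6, per the labels. Partek gave each cell an estimated count total that need not be whole, and the authors also deposited the percent of each cell's counts from mitochondrial and ribosomal genes. Per the methods they had kept cells by number of genes, UMIs and mitochondrial share, and the aligner, annotation and handling of doublets are not given in the sources used here. No doublet caller was run here. Multiplying CPM by the total recovered whole counts for 99.4% to 99.5% of values above 0, within 0.02 of a whole number.

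CPM was averaged over the OAF cells of each library. Genes with at least 5 CPM in at least 4 of the 8 libraries were tested on log2(mean CPM + 1), with a pseudocount of 1, by limma 3.58.1 with trend and the rat as a block, and p-values were adjusted by Benjamini-Hochberg over all genes tested. A fold change on this scale understates the change of low genes. LDP and CON libraries with the same number in their titles were taken to come from the same rat, which is the source of the pairing. The titles themselves do not name the rat. The correlations of the deviations of the 2 libraries of rats 1 to 4 from their group means were -0.119, 0.0822, 0.138 and -0.0519. The interaction was fitted the same way on OAF cells minus the mean of subclusters 1 and 2, for genes past the filter in OAF cells or in both other subclusters. Shares of cells were tested over libraries by exact two-sided permutation tests. edgeR 4.0.16 (quasi-likelihood) and DESeq2 1.42.0 were run on recovered counts, rounded and summed per library, as alternatives. Clusters were made by Leiden (resolution 0.5, 2000 variable genes, 30 components) in scanpy 1.11.5. The scripts were tested on simulated data.

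Named in the text, apart from some items that are not reported here, are the 6 OAF markers and Ngfr, for the profile the 15 genes most above and the 10 most below both other subclusters (at least 20 CPM and 1 sign in 8 of 8 libraries), for LDP against CON the 10 with the largest rise and the 10 with the largest fall among genes past the threshold that moved 1 way in 4 of 4 rats, and the called members of each list among the 2 with the lowest p, with 4 for the Hox list. Pi16, Igf1, Sox10 and the list members given for the profile were named after their values were seen. The members, lists and tests were chosen with earlier results of these data known. The tests without marker-bearing cells by edgeR, DESeq2, rescaled CPM and joint clustering, for the interaction and for the share of cells with Ngfr, and the shares over all cells of a library, were chosen after seeing the data.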

Additional observations from a re-analysis of the deposited data

Results flagged for a closer look

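Among 88 groups of 4 libraries tested for a sample far from the others, 2 were marked, and chance marks about 1 in 20 such groups. Sostdc1 in the OAF cells of CON rat 1 lay at 0.804 on the scale of log2(CPM + 1), while the other 3 CON libraries were at 0. RGD1561849 in those of LDP rat 4 lay at 1.98, below the other 3 LDP libraries.

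For 19 named genes the change in all OAF-labelled cells differed from that in the other 2 subclusters by the interaction test (limma adjusted p under 0.05). With subcluster numbers given separately in CON and LDP, this test cannot tell a difference between discs from one in labelling. The change in OAF cells exceeded the other, on the log2 scale, by 5.81 for Scn7a, 5.38 for Myh11, 5.32 for Col28a1, 5.21 for Cxcl2, 4.89 for Prrg4, 4.89 for Sox2, 4.66 for Sostdc1, 4.66 for the Schwann marker Cdh19, 4.49 for Acta2, 3.06 for Adamts4, 2.74 for Esam, 2.30 for Fst, 2.27 for Ngfr and 2.18 for Itgb4. Of these, Scn7a, Col28a1, Cxcl2, Prrg4, Sox2, Sostdc1, Cdh19 and Esam lay under 5 CPM in the OAF cells of every CON library and passed the filter through LDP alone. The rise of these 8 in OAF cells therefore follows from the filter, which does not fix its difference from the change in the other subclusters. Acta2 was also under 5 CPM in the OAF cells of every CON library. Over these 14 genes the mean log2 change in the other subclusters ranged from -1.45 for Adamts4 to 0.00118 for Acta2. The change in OAF cells was lower than the other by a difference of -1.85 for Scara5, -1.58 for Tmem100, -1.50 for Agtr2, -1.48 for Zic1 and -0.95 for RGD1561849. Without the marker-bearing cells 9 of these 19 were not tested, since they fell under the filter on low values. The other 10 had limma adjusted p-values of 0.149 to 0.836 there, where limma called 0 of 9049 genes, against 554 upward and 871 downward at an unadjusted p under 0.05. The 5 lower differences kept most of their size there, at -1.65 for Scara5, -1.43 for Tmem100, -1.36 for Agtr2, -1.32 for Zic1 and -0.76 for RGD1561849. The other 5 were 1.14 for Adamts4, 0.66 for Fst, 0.55 for Itgb4, 0.18 for Ngfr and 0.15 for Acta2.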

How the results depend on the processing

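The LDP minus CON difference in the OAF share of IVD cells was -0.106 points, -0.618 over all cells and -3.44 with joint clustering, and -1.75 to 2.62 with each rat left out, and it passed no test. With each rat left out, the differences were 1.66 to 2.49 points for Ngfr, 4.42 to 6.09 for Schwann-marked and 5.67 to 6.43 for pericyte-marked OAF cells, each at the smallest p that 20 splits allow, 0.1. In the paired sign-flip test over rats (replicate block) the differences of 2.19, 5.37 and 5.99 points reached the smallest p it allows, which is above 0.05. Ngfr differed by 0.187 points without cells of at least 2 Schwann markers over all UMIs (adjusted p 0.514, exact permutation test), by 0.136 with joint clustering and by -0.130 without marker-bearing cells. As a share of all cells in a library, marked cells differed by -0.141 (Schwann) and -2.58 points (pericyte), and with at least 3 markers by -0.0181 and -1.64.

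The counts of higher and lower genes, 110 and 15, were 46 and 8 at 20 CPM, 117 and 9 with no replicate block, 90 and 4 by edgeR, 82 and 5 by edgeR without TMM, 130 and 32 by DESeq2, 74 and 39 from mean log values, and 28 to 122 and 0 to 50 with each rat left out. By limma they were 1 and 0 with joint clustering and, without marker-bearing cells, 1 and 0 by limma, edgeR, rescaled CPM and joint clustering, and 7 and 10 by DESeq2. Without the marker-bearing cells edgeR had 162 and 233 at an unadjusted p under 0.05. Of the 110 higher genes 15 were below 0 without marker-bearing cells. Among the genes named in the text 3 reversed, which were Adamts4, with -0.31 without marker-bearing cells, -0.28 with joint clustering and -0.24 with both, and -0.16, -0.16 and -0.19 without marker-bearing cells by edgeR, DESeq2 and rescaled CPM; Fst, with -0.13, -0.30, -0.28, -0.0884, -0.0871 and -0.0139 in that order; and Itgb4 with -0.00783 without marker-bearing cells. For the interaction, 295 and 130 became 429 and 232 at a pseudocount of 5, 161 and 17 with no filter, 419 and 257 at 20 CPM, 68 to 140 and 5 to 37 with each rat left out, and 0 and 0 without marker-bearing cells. Rescaling by TMM moved the median log2 change from -0.09 to -0.02 and, without marker-bearing cells, from -0.12 to -0.01. Since removal of marker-bearing cells takes out cells by their markers, it changes which cells are compared and not only how; the cause of the other differences was not tested. Levels under about 5 CPM rest on few UMIs per library.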
